A study of Homo sapiens with 2 samples.

Results

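hsa-miR-192, hsa-miR-194, hsa-miR-215 and hsa-miR-375 (below without the species prefix) are miRNAs enriched in differentiated epithelium of the gastrointestinal tract. They were taken by name from the signal table of a human miRNA array, as 4 of its 1329 probes and 4 of its 879 probes for mature miRNAs. The array compared cells of the established gastric cancer line MKN1 that were kept for 24 h under normoxia (20% O2) or hypoxia (1% O2), with no other treatment named in the labels. Total RNA was labeled with biotin and 1 array was hybridized per condition, so the differences have no replicate check, a test between conditions could not be made, and the number of arrays limits the precision. Signals are normalized intensities on a linear scale. The lowest signal above 0 was 20, and the probes without such a signal were listed at 0. The sources used here do not say what this 0 means.

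In the human genome these miRNAs come from a pair of clusters and a lone gene. miR-192 and miR-215 share a seed, the stretch at the 5′ end that pairs with target mRNAs, and each is transcribed next to a copy of miR-194. Both clusters are known to be active in intestinal epithelium and to be induced by p53, and their miRNAs can arrest the cell cycle. miR-375 is best known from pancreatic islets, where it restrains insulin secretion, and is also made in neuroendocrine cells and in the mucosa of the gut. Its level is often low in gastric carcinoma.

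The mature sequences, from the RefSeq annotation of GRCh38.p14, are shown because they decide which of the 4 signals can be read apart from each other. All 4 names matched, with miR-192, miR-194 and miR-215 read as the 5p strands and miR-375 as the 3p strand. Each runs 5′ to 3′ with the seed, bases 2 to 8, in capitals.
miR-192: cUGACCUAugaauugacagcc
miR-215: aUGACCUAugaauugacagac
miR-194: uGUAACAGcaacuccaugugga
miR-375: uUUGUUCGuucggcucgcguga
miR-192 and miR-215 had the same seed and were identical at 19 of 21 bases. Counted from 1 at the 5′ end of miR-192, their differences were C1A and C20A, which left a shared run of 18 bases. No other mature miRNA among 2370 RefSeq names carried that seed, and none shared the seed of miR-194 or of miR-375. How far the probes of miR-192 and miR-215 hybridize to each other's miRNA was not tested, so these 2 signals may not be independent. The longest run that miR-194 shared with another of the 4 was 5 bases, and for miR-375 it was 3 bases.

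MIR192 lies on chromosome 11 (64891137 to 64891246, minus strand) and MIR194-2 lies 108 bases away (64891355 to 64891439), with MIR6750 as the only other miRNA gene of the table within 10 kb. On chromosome 1, MIR215 (220117853 to 220117962, minus strand) and MIR194-1 (220118157 to 220118241) are 194 bases apart. MIR375 lies on the minus strand of chromosome 2 (219001645 to 219001708), with no other miRNA gene of the table within 10 kb. The mature miR-194 sequence is the same for both of its genes, so its 1 mature probe cannot tell the clusters apart. The array files name no genome build, and these positions are those of the RefSeq sequences.

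Of the 4 miRNAs, 3 gave a signal on both arrays, as did 58.0% of the 879 mature probes, and all 4 were far from the brightest probes. The signal of hsa-miR-192 was 386 on the normoxia array and 283 on the hypoxia array. For hsa-miR-194 the signals were 339 and 197, in the same order. hsa-miR-215 was dimmer, with 68.7 on the normoxia array and 55.3 on the hypoxia array. For these 3 miRNAs the hypoxia array gave the lower deposited signal. hsa-miR-375 went the other way, from a listed 0 on the normoxia array to 70.7 on the hypoxia array.

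**Figure D1:**
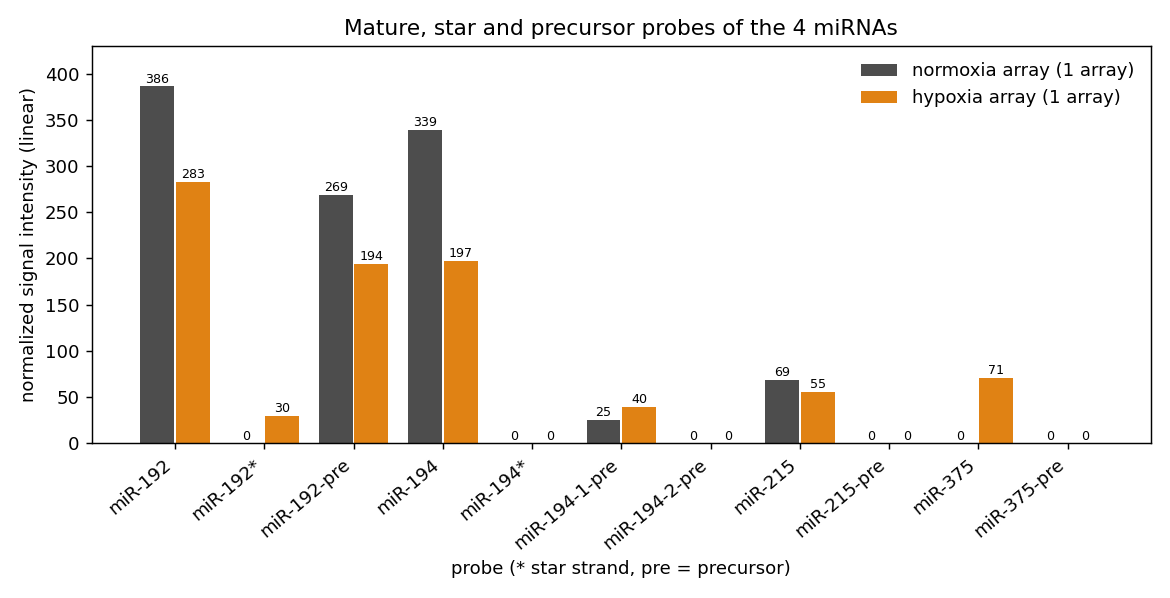
Bars give the normalized signal intensity (linear axis from 0) of the mature, star strand and precursor probes of the 4 miRNAs on the normoxia array and on the hypoxia array, with 1 array per condition and no error bars. Mature miR-192, mature miR-194 and the miR-192 precursor carry most of the signal, and 4 of the 11 probes are at 0 on both arrays.

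Among the mature probes with a listed signal, the members lay near the median or below it, and miR-192 and miR-194 lay above the median of all mature probes, those at 0 included. Under normoxia, miR-192 ranked 255th and miR-194 ranked 266th of 879 mature probes, at the 71.0th and 69.8th percentiles, since 368 mature probes were listed at 0. Among the 511 mature probes with a signal under normoxia, miR-192 was at the 50.2nd percentile and miR-194 at the 48.0th. miR-215 stood at the 50.3rd percentile of all mature probes and at the 14.6th of those with a signal. So miR-192 and miR-194 were close to the median listed mature signal of 384, and miR-215 was below the 25th percentile of those signals, which was 118. Under hypoxia, the percentiles among all mature probes were 65.2 for miR-192, 60.6 for miR-194, 47.2 for miR-375 and 44.8 for miR-215. There, 596 mature probes had a signal, with a median of 297, and the percentiles among them were 48.7 for miR-192, 41.9 for miR-194, 22.1 for miR-375 and 18.6 for miR-215.

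**Figure D2:**
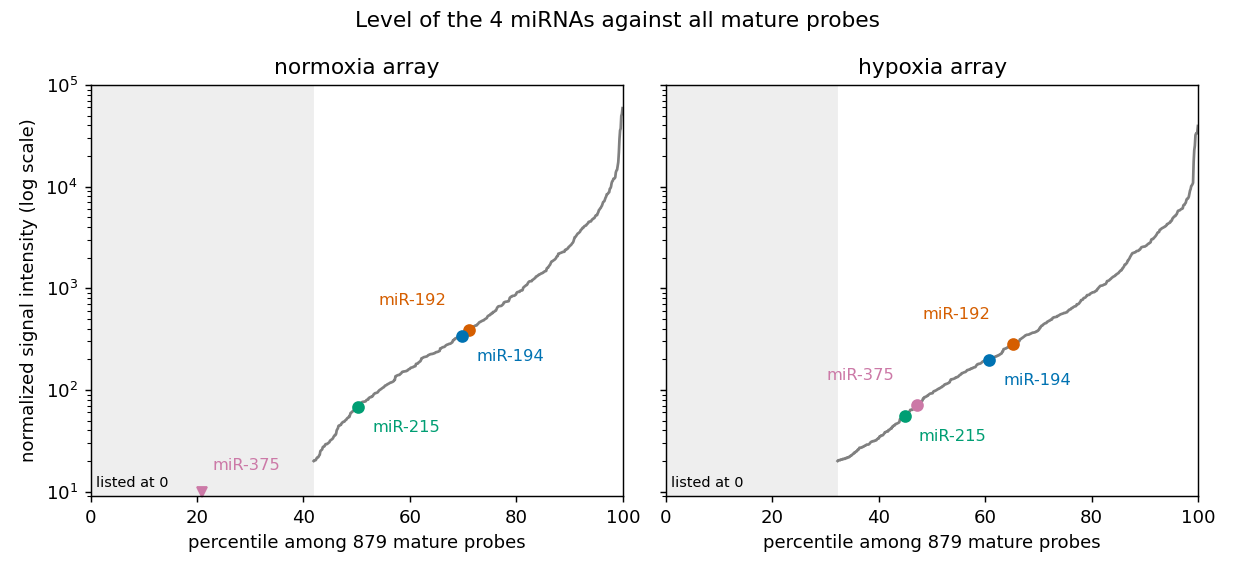
The curve gives, for each array, the normalized signal (log axis) of the mature probes against their percentile among all 879, the shaded part holds probes listed at 0, and colored points are the 4 miRNAs. miR-192 and miR-194 lie near the middle of the listed signals, miR-215 low on the curve, and miR-375 in the shaded part under normoxia and at 70.7 under hypoxia.

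The 4 signals together were 0.0781% of the summed mature signal under normoxia and 0.0693% under hypoxia. The brightest mature probe, that of miR-23a, exceeded miR-192 by 153-fold on the normoxia array and by 139-fold on the hypoxia array. The order of the signals was miR-192, miR-194, miR-215 and miR-375 under normoxia, and miR-375 stood above miR-215 under hypoxia. Probes differ in how well they bind and how their miRNA is labeled, so this is an order of array signals and not of copies per cell. Without replicate arrays it is not known which neighbours in the order differ beyond error, and the closest were miR-192 and miR-194 under normoxia (signal ratio 1.14) and miR-375 and miR-215 under hypoxia.

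To see how oxygen related to these signals, hypoxia was set against normoxia for each miRNA with a signal on both arrays. None of the 3 differed by over 2-fold. This is the fold threshold of the paper's methods, which also name a Student's t-test that was not made here. By fold alone, 11.8% of all 663 probes with a signal on both arrays exceeded it, and 2.11% of the 663 did so in the lower direction. At 1.5-fold lower, a threshold that 12.5% of the 663 probes passed, miR-194 was the only one of the 3 on the authors' scaling. It was no longer past 1.5-fold with total signal scaling (-0.583 on the log2 scale) or with 75th percentile scaling of each array's own listed signals (-0.23). All 3 were past it with quantile normalization or with the trend with signal taken out. The 12.5% belongs to the authors' scaling, and the share of all probes was not calculated with the other scalings. Median centring brought miR-192 level with the 1.5-fold threshold (-0.585), with miR-194 past it. miR-194 was 1.72-fold lower under hypoxia, a log2 fold change of -0.78. miR-192 was 1.37-fold lower (-0.45 on the log2 scale) and miR-215 was 1.24-fold lower (-0.31), and both of these were higher instead when each array was scaled on the 75th percentile of its own listed signals, at 0.11 and 0.24. Their median log2 fold change was -0.45, against 0.076 for the 510 mature probes with a signal on both arrays, of which 46.5% were lower by any amount. Only 33 of these 510 probes had a lower log2 fold change than miR-194, while 103 were below miR-192 and 149 below miR-215.

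The interquartile range of the mature probes ran from -0.36 to 0.53 on the log2 scale and the central 95% from -0.98 to 1.46. miR-215 was inside the interquartile range, and miR-192 and miR-194 were below it but inside the central 95%. The median log2 fold change of all 663 probes was 0.14 on the authors' scaling. Relative to that median, the log2 fold changes were -0.92 for miR-194, -0.58 for miR-192 and -0.45 for miR-215. The fitted trend of log2 fold change with signal was above 0 for dim probes on average, though not for each of them, and its value at the signals of the 3 miRNAs was 0.22 for miR-194, 0.18 for miR-192 and 0.37 for miR-215. With the trend taken out, miR-194 came to -0.997, just short of 2-fold, miR-215 to -0.68 and miR-192 to -0.63.

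**Figure D3:**
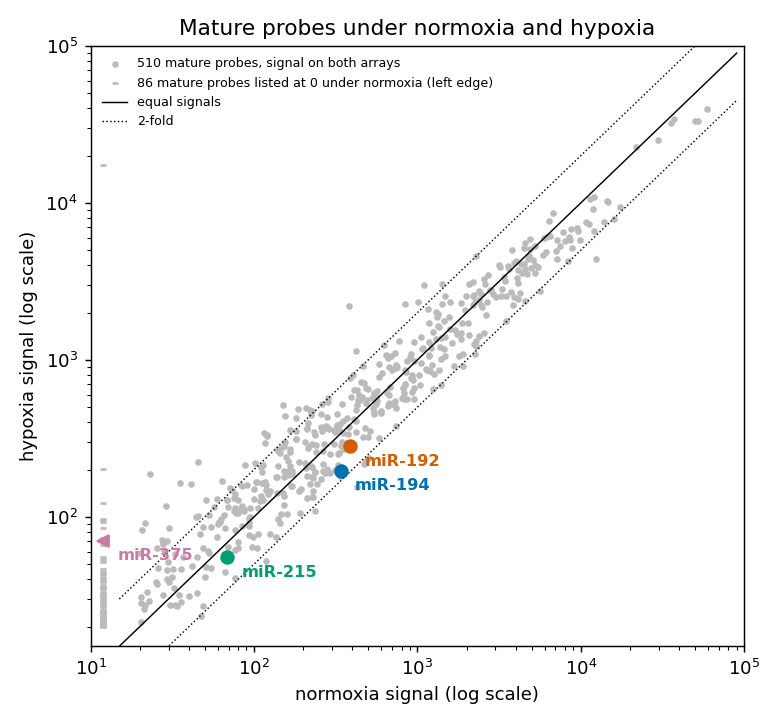
Each point is a mature probe, with its normoxia signal on the x axis and its hypoxia signal on the y axis (both log axes); marks at the left edge are the 86 mature probes listed at 0 under normoxia that had a hypoxia signal. miR-192, miR-194 and miR-215 lie under the line of equal signals and inside the dotted 2-fold lines on the authors' scaling (miR-192 and miR-215 were higher under hypoxia with 75th percentile scaling of each array's own listed signals), and miR-375 is at the left edge.

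miR-192 and miR-194, partners on chromosome 11, differed by 0.33 in their log2 fold change, and their signal ratio was 1.14 under normoxia and 1.43 under hypoxia. For miR-194 and miR-215, the partners on chromosome 1, the difference (miR-194 minus miR-215) was -0.47, and the signal ratio was 4.94 under normoxia and 3.57 under hypoxia. Between the same-seed pair the difference was smaller than in both of these. miR-192 had 5.63 times the signal of miR-215 under normoxia and 5.11 times under hypoxia, and their log2 fold changes differed by 0.14. No interval can be put on these differences with 1 array per condition. The miR-192 and miR-215 signals may not be independent, miR-215 was dim, and the mature miR-194 probe cannot tell the clusters apart.

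miR-375 belonged to the 86 mature probes with a signal on the hypoxia array alone, which was 23.4% of the 368 mature probes listed at 0 under normoxia. Its hypoxia signal of 70.7 ranked 9th among these 86, whose median was 30.0, and 70 of them were under 50. Next to it in that order were miR-629* with 73.7 and miR-1261 with 70.0. The signal was 3.53 times the lowest listed signal of 20, and 77 mature probes had a listed normoxia signal below 70.7. The opposite case, a signal under normoxia only, occurred for 1 mature probe, miR-27a*, which had 48.0 on the normoxia array. No fold change was calculated for miR-375, and how far the listing of more probes on the hypoxia array (837 against 665 of all probes) set its signal was not tested.

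Other probes of the same genes were also read, 2 for star strands, the less abundant strands of the hairpins, and 5 for precursors. Each mature sequence lies within its precursor. How far the precursor probes hybridize to the mature strand was not tested, so precursor and mature signals may not be independent. The miR-192 precursor gave 269 on the normoxia array and 194 on the hypoxia array, and its log2 fold change was -0.47 beside -0.45 for mature miR-192. The precursor of miR-194 on chromosome 1, mir-194-1, had 25.3 under normoxia and 39.7 under hypoxia (0.65 on the log2 scale), both near the lowest listed signal. The mir-194-2, miR-215 and miR-375 precursors were listed at 0 on both arrays, as was miR-194*. miR-192* was listed only on the hypoxia array, with 29.7. Of the 172 mature probes named with a star, 12.8% were listed on the hypoxia array alone. On the whole array, 34.0% of the 450 precursor probes had a signal on both arrays and 46.2% on neither. Thus, of the 5 precursor probes, only that of miR-192 gave a signal well above the lowest listed one. For mature miR-375 no precursor signal stood beside the signal under hypoxia.

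The nearest mature probes to each member, by the distance of the pair of log2 signals over these 2 arrays, were miR-196a, miR-152 and miR-95 for miR-192 (distances 0.084 to 0.18). For miR-194 they were miR-142-3p, miR-100 and miR-454 (0.085 to 0.11), and for miR-215 they were miR-7-1*, miR-362-5p and miR-708* (0.054 to 0.23). miR-142-3p, a miRNA of blood cells, had 338 and 209, close to both signals of miR-194. With 2 arrays, such closeness says only that the signals were similar.

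Other miRNAs known from digestive and epithelial tissue gave the setting of these levels. All 7 epithelial miRNAs, the miR-200 family with miR-203 and miR-205, had a signal on both arrays, from 93.3 to 1203 under normoxia, and none differed by over 2-fold. Over the array these shares were 58.0% of mature probes with a signal on both arrays and 11.8% of the 663 probes over 2-fold, so 0 of 7 is close to the background. The median log2 fold change of these 7 was -0.090. miR-21, abundant in many tumours of the digestive tract, had 51865 on the normoxia array and 33275 on the hypoxia array, a log2 fold change of -0.64. miR-31, which is raised in many colorectal tumours, had 1858 under normoxia and 1495 under hypoxia. miR-148a, abundant in pancreas and liver, had 866 and 984, at the 79.9th and 81.1st percentiles of mature probes. miR-122, the defining miRNA of hepatocytes, had 1171 under normoxia and 1720 under hypoxia, at the 82.5th and 86.4th percentiles, so a miRNA that defines another tissue was listed higher on this array than the 4 gastrointestinal ones.

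Among miRNAs of the pancreas, miR-7, which is made in islets like miR-375, had 1152 under normoxia and 856 under hypoxia. Of the miRNAs of its exocrine part, miR-216b had 68.3 and 127 (0.90 on the log2 scale), miR-216a was listed only on the hypoxia array with 20.7, and miR-217 was listed at 0 on both. Like miR-375, miR-216a was therefore listed under hypoxia only, as were 23.4% of the 368 mature probes listed at 0 under normoxia. Its signal of 20.7 was close to the lowest listed signal of 20. The p53-responsive miR-34 family, set beside the clusters because p53 is known to induce both, had 5 of 5 probes with a signal on both arrays and none over 2-fold, beside the same array-wide shares. miR-34a had 5233 under normoxia and 3997 under hypoxia (-0.39 on the log2 scale), and 3 of the 5 probes were lower and 2 higher, with a median of -0.15.

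Markers of other cell types were also listed. The 5 muscle and mesenchymal miRNAs summed to 1547 under normoxia and 1985 under hypoxia, the 5 blood miRNAs to 2184 and 1907, and the 3 neuronal ones to 9369 and 6726, of which miR-129-5p alone had 8417 and 6030. Among these markers, miR-451 of red blood cells was at 0 on both arrays, and miR-124 of neurons was at 0 on the normoxia array and had 31.3 on the hypoxia array. All other markers of these 3 lists had a signal on both arrays, as did 58.0% of the 879 mature probes. Examples were miR-223 of myeloid cells (258 and 174), miR-150 of lymphocytes (666 and 903), miR-9 of neurons (952 and 665) and miR-1 of muscle (110 and 209). The RNA on both arrays came from cultured MKN1 cells, with no other cell type named in the labels. How far hybridization to related sequences contributed to these signals or to the 4 gastrointestinal ones was not tested.

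**Figure D4:**
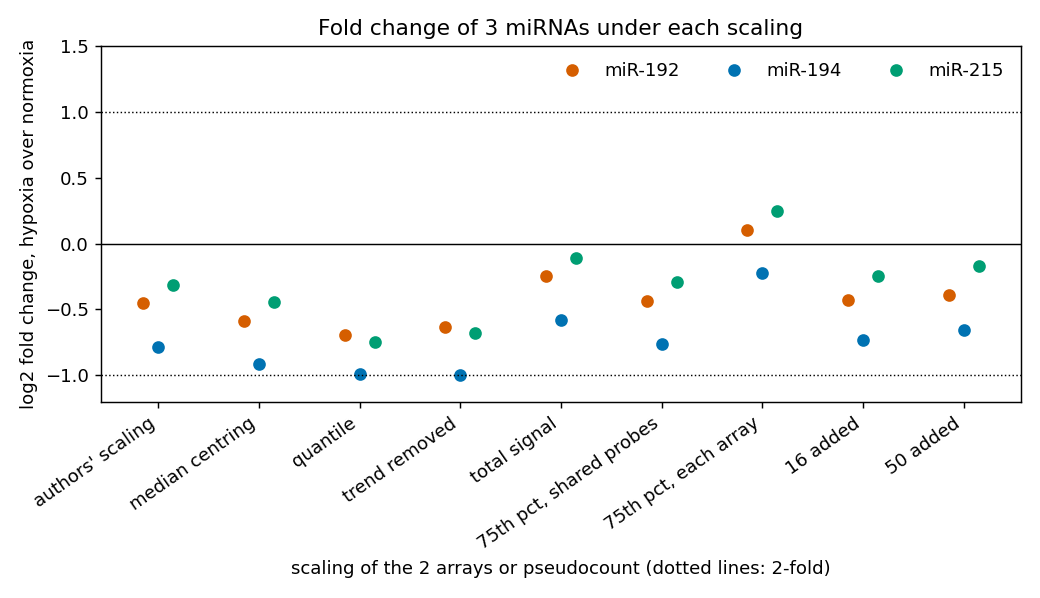
Points give the log2 fold change (hypoxia over normoxia) of miR-192, miR-194 and miR-215 under the authors' scaling, 6 other scalings and 2 pseudocounts, with dotted lines at 2-fold. miR-194 is below 0 in each, and miR-192 and miR-215 are below 0 in each except with 75th percentile scaling of each array's own listed signals, where they are at 0.11 and 0.24.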

How the data were processed

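Biotin-labeled total RNA of MKN1 cells was measured on GenoSensor human miRNA arrays (miRBase v13 probes), 1 array each for normoxia and hypoxia. The authors read the spots with GeneSpring GX (the sources used here give no version) and deposited signal intensities normalized on global signal intensity, on a linear scale. All 447 signals under 100 were spaced like means of 3 spots (tolerance 0.02). The second deposited table held the same signals for 1329 of 1329 probes. The authors' ratio and p-value columns, which hold their own comparison, and their detection mark were not used.

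Log2 fold changes were calculated from the signals for probes listed on both arrays, without a pseudocount, and read against a threshold of 2-fold. Percentiles give the share of probes with a lower signal, with ties split evenly. Named probes were the members, their star strands, precursors and seed mates, the 3 nearest mature probes to each, and preset lists. Additional probes were named after their values were seen: miR-23a, miR-629*, miR-1261 and miR-27a*. The members and lists were chosen with earlier results of these data known. Alternatives were other scalings, pseudocounts of 16 and 50, a lowess trend (span 0.4), a filter, other thresholds and other reference sets. The calculation was tested on simulated data. Software was Python 3.11.15, statsmodels 0.14.6, numpy 2.4.6, matplotlib 3.10.9, pandas 2.3.3 and scipy 1.17.1.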

Additional observations from a re-analysis of the deposited data

How the results depend on the processing

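No paired analysis was possible because each condition had a single array. With 75th percentile scaling of each array's listed signals, the log2 fold change turned to 0.11 for miR-192 and 0.24 for miR-215, and that of miR-194 was -0.23. The hypoxia array lists 837 probes against 665, which lowers its percentile by construction, and this scaling moved the median of all probes to 0.69. On the probes listed on both arrays, an alternative added after the data were seen, the values were -0.43, -0.30 and -0.77. Under the other alternatives that gave a value all 3 stayed lower and under 2-fold, from -0.69 to -0.25 for miR-192, -0.997 to -0.58 for miR-194 and -0.75 to -0.11 for miR-215, which the filter on dim probes left out. Some of these could not have changed that outcome. The second deposited table, the filter and the reading of 0 as 20 leave such values as they are. A pseudocount can only shrink them. The count over 2-fold went from 0 to 1 at a threshold of 1.5-fold (miR-194) and to 1 with signals of 0 read as 20 (miR-375, log2 fold change 1.82). That reading gave a value to 839 probes, against 663 on the main setting, and the share of them over 2-fold was not calculated. By construction, no probe listed under hypoxia alone can come out lower with it. Among mature probes with a signal, the percentiles of miR-192 were 50.2 under normoxia and 48.7 under hypoxia, those of miR-194 were 48.0 and 41.9, those of miR-215 were 14.6 and 18.6, and that of miR-375 under hypoxia was 22.1. The order of signals was the same in both deposited tables, because these hold the same signals. Single spot values were not analysed here, so the error of dim signals is unknown.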
